A study of Mus musculus with 18 samples.

Results

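Iron handling in the liver was read from 10 genes, of 52230 in the tables, in 18 mice: the hepcidin genes Hamp and Hamp2, the hepcidin regulators Hjv, Hfe and Tfr2, the transferrin receptor Tfrc, the iron exporter Slc40a1, the ferritin chains Fth1 and Ftl1, and the importer Slc39a14. They were taken by gene symbol as a list of iron genes, and all 10 passed the filter of at least 10 counts in at least 4 libraries, as did 10938 genes in all. The study made RNA-sequencing libraries of liver from littermates of the knock-in line GCKR-P446L-EMI-B6N for GKRP, the regulatory protein of glucokinase and the product of Gckr, to ask how exchange of a proline (446P, PP) for a leucine (446L, LL) changes gene expression. The groups were 4 male PP (wild-type), 4 male LL (knock-in), 5 female PP and 5 female LL mice, all on a standard chow diet and 9 to 14 weeks old by their labels. The LL allele came from a single line, and the exchange lies in a codon, so gene counts cannot check the genotype.

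Hepcidin is a small peptide hormone that hepatocytes secrete. It binds ferroportin, the product of Slc40a1, and so lowers the release of iron into plasma. Its synthesis follows transferrin-bound iron through HFE, transferrin receptor 2, hemojuvelin (Hjv) and bone morphogenetic proteins, and follows inflammation through interleukin 6 and STAT3. Mice have a second hepcidin gene, Hamp2, beside Hamp. Iron regulatory proteins bind hairpins called iron-responsive elements in the mRNAs of ferritin, ferroportin and the transferrin receptor, and act there on translation or on mRNA stability.

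Hamp (ENSMUSG00000050440) lies at chromosome 7, 30641766 to 30643990, and Hamp2 (ENSMUSG00000056978) at chromosome 7, 30621797 to 30624106, both on the minus strand of GRCm39. Their coding sequences were 95.0% identical over 242 aligned bases, so that reads must be divided between near copies.

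Of the 10 genes, 4 held the letters of an iron-responsive element, a loop of CAGUGN on a stem of 5 pairs with an unpaired C before it, which 1.33% of 21770 canonical protein-coding transcripts held on the same search. The elements are shown with the loop in capitals in the lines that follow, and their part in the differences below was not tested.
Fth1, 5′ UTR, chr19:9960097-9960123, plus strand: uccugcuucaaCAGUGCuugaacggaa
Ftl1, 5′ UTR, chr7:45109204-45109230, minus strand: ucuugcuucaaCAGUGUuugaacggaa
Slc40a1, 5′ UTR, chr1:45964626-45964652, minus strand: aacuucagcuaCAGUGUuagcuaaguu
Tfrc, 3′ UTR, chr16:32450038-32450064, plus strand: auuaucggaagCAGUGCcuuccauaau

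The element lay in the 5′ UTR of Fth1, Ftl1 and Slc40a1 and in the 3′ UTR of Tfrc, where 4 matches were found and the first is shown. No match was found in the canonical transcripts of Hamp, Hamp2, Hjv, Hfe, Tfr2 or Slc39a14.

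Levels between genes were compared in TPM, which corrects for transcript length. Hamp2 is given by group, since the sexes differed: its mean was 61.8 TPM in male PP, 64.9 TPM in male LL, 2055 TPM in female PP and 3589 TPM in female LL mice. Of the other 9 genes, the median over 18 libraries was highest for Hamp, at 3638 TPM, followed by Fth1 at 2864 and Ftl1 at 2202 TPM. Tfr2 followed at 58.1 TPM, Slc39a14 at 21.8, Slc40a1 at 16.7, Hjv at 12.8, Hfe at 10.8 and Tfrc at 5.37 TPM. Hamp2 thus lay near Tfr2 in males, and in LL females its mean was above those of Fth1 (3456 TPM) and Ftl1 (2791 TPM). Among the genes of high level the ranges over the 18 mice overlapped, as with Hamp (856 to 7611 TPM) and Fth1 (1428 to 4754 TPM). The highest Slc40a1 value, 545 TPM in female PP 2, came from 11.1 estimated reads on a short Slc40a1 transcript that had 0 reads in the other 17 libraries. All values below are therefore normalized counts (counts divided by the size factor of the library), unless TPM is named. The TPM of Hamp and Hamp2 is less sure, as their main transcripts have 410 and 420 bases and fragments had 203 to 631. In normalized counts, not corrected for length, the mean over 18 libraries was 4502 for Hamp, 6743 for Fth1 and 7959 for Ftl1. In LL females the mean was 4067 for Hamp2, 7973 for Fth1 and 10292 for Ftl1, so the order depended on the measure.

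**Figure D1:**
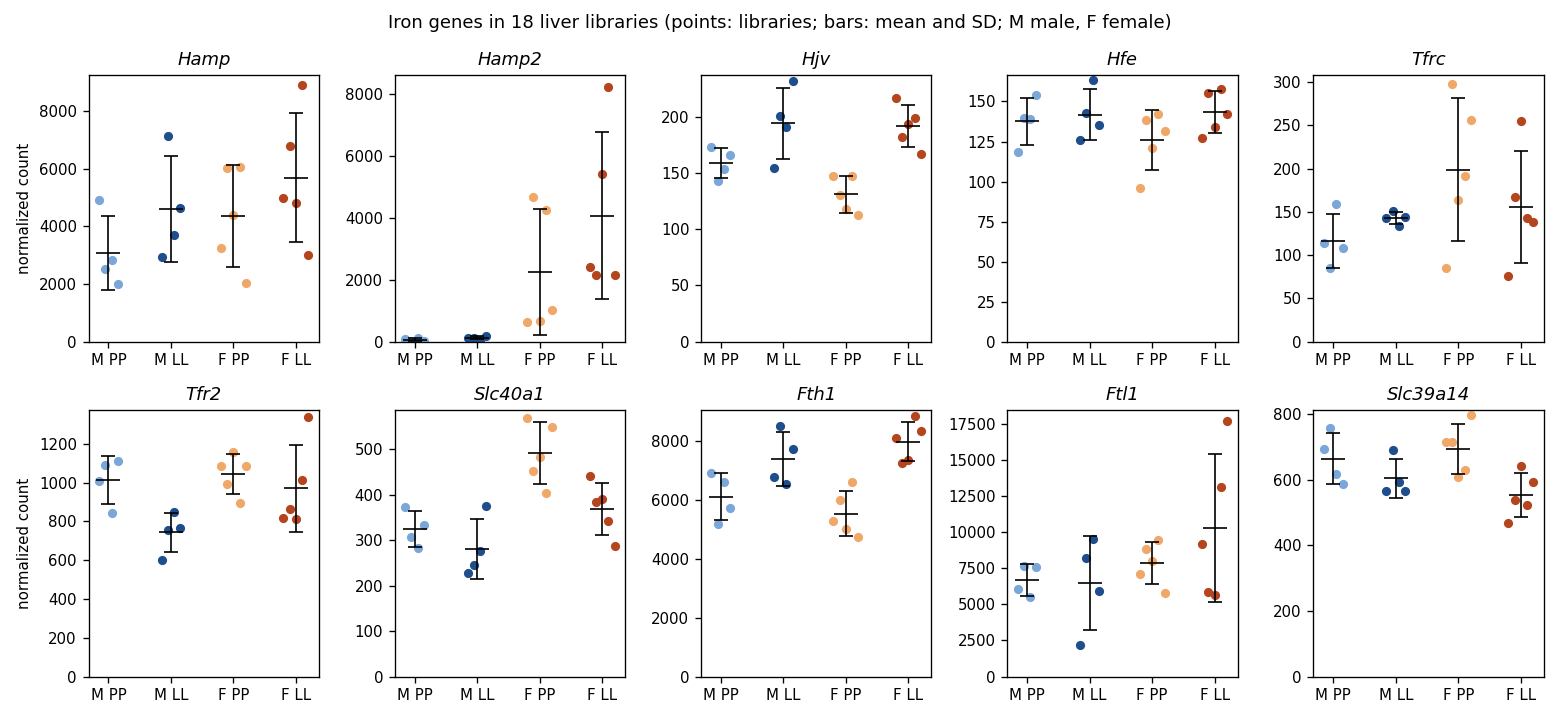
Normalized count (vertical axes, from 0) of the 10 iron genes in the 4 groups on the horizontal axes, with 1 point per mouse and the mean and SD as bars. The female points of Hamp2 lie above all male points, and the female LL points of Fth1 and Hjv lie above all female PP points.

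Pairs of groups (4) and the genotype by sex interaction were compared with DESeq2, and a gene was called when its adjusted p was below 0.05 and it showed a change of 1.3-fold or more upward or to 0.7 or less downward. By LL genotype in females, 2 of 10 iron genes were called, against 0.658% of all tested genes, and in males 0 of 10, against 0.283%. In males 3 of the 10 had an unadjusted p below 0.05 with DESeq2, as had 854 of the 10938 tested genes. With edgeR it was 2 of the 10, and the share of all tested genes was not counted. Between the sexes, 2 of 10 were called in PP mice, against 6.45% of all genes, and 1 of 10 in LL mice, against 6.12%. The interaction gave 0 of 10, against 0.119% of all genes, and 0 of the 10 had an unadjusted p below 0.05 with DESeq2 or edgeR, against 620 of all tested genes with DESeq2. The median log2 fold change of the 10 genes by LL genotype was 0.15 in males and 0.29 in females, beside 0.00 and 0.01 over all tested genes. The sex comparisons and the genotype comparisons share groups.

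**Figure D2:**
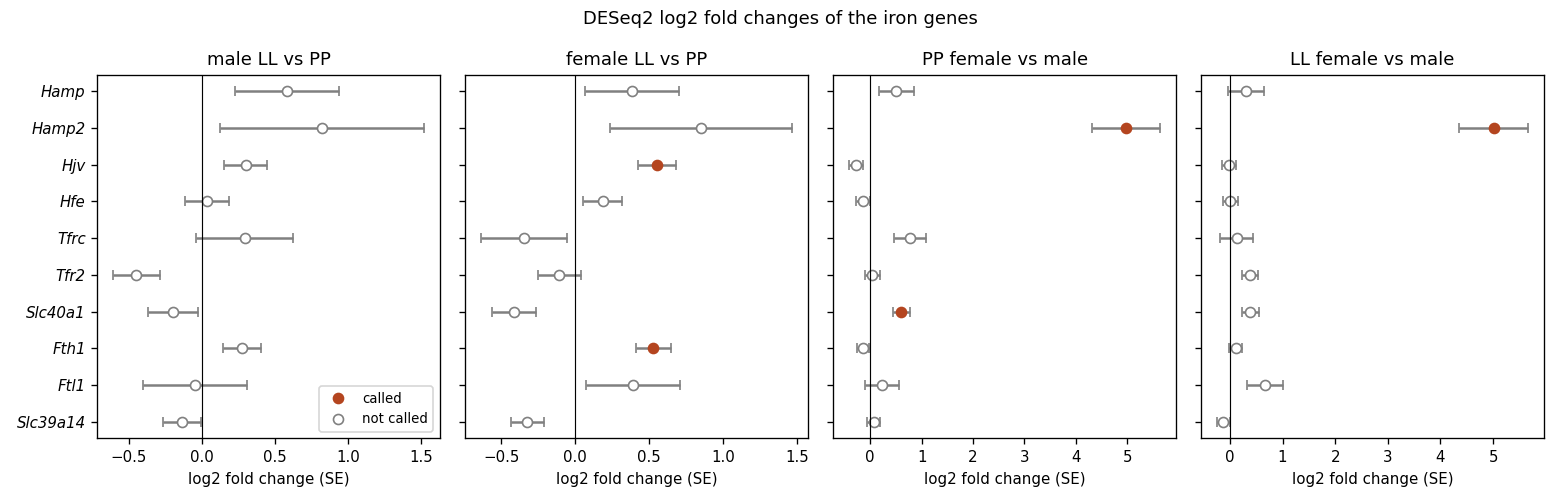
DESeq2 log2 fold changes (horizontal axes, bars are standard errors) of the 10 genes in 4 comparisons of 2 groups each, with filled points for called genes. Hamp2 lies near 5 in both sex comparisons, and Fth1 and Hjv lie near 0.5 in the female genotype comparison.

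Hamp2 was higher in females than in males of both genotypes, by more than any other iron gene. Its normalized counts in male PP mice were 92.8, 37.8, 122 and 33.3, and in male LL mice 131, 134, 63.4 and 177. In female PP mice they were 647, 4679, 677, 4259 and 1014, and in female LL mice 2420, 2141, 5416, 8211 and 2148. Every female thus exceeded every male in both genotypes, where 9.74% of all tested genes in PP and 8.16% in LL mice did not overlap, and the female PP mice fell into 2 with at least 4259 and 3 with at most 1014. The log2 fold change of females over males was 4.98 ± 0.66 (SE; adjusted p = 8.90e-12, DESeq2) in PP and 5.01 ± 0.66 (SE; adjusted p = 8.78e-12) in LL mice, a fold change of 31.6 and 32.2. It was called in all 10 alternative settings in which Hamp2 stayed a gene of its own and in all 18 fits that left out 1 mouse, with log2 fold changes of 4.10 to 5.37 in PP mice.

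By LL genotype Hamp2 did not pass the test in either sex. Its log2 fold change was 0.82 ± 0.70 (SE; adjusted p = 0.711, DESeq2) in males and 0.85 ± 0.62 (SE; adjusted p = 0.547) in females, and the groups overlapped in both.

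Hamp, the main hepcidin gene, was not called in any comparison. Male PP mice had 4920, 2516, 2853 and 2020 normalized counts, and male LL mice 2925, 7137, 3715 and 4630. Female PP mice had 3258, 6032, 4413, 6076 and 2044, and female LL mice 4982, 6776, 4815, 8908 and 3015. All 4 groups overlapped. By LL genotype Hamp had a log2 fold change of 0.58 ± 0.36 (SE; adjusted p = 0.558, DESeq2) in males and 0.38 ± 0.32 (SE; adjusted p = 0.613) in females, and that of females over males was 0.50 ± 0.34 (SE; adjusted p = 0.487) in PP and 0.31 ± 0.34 (SE; adjusted p = 0.670) in LL mice. The Hamp transcript has 410 bases in the tables, and fragments were longer than that in 3 of the 4 male PP libraries (516 to 629.7 bases) and in 3 of the 4 male LL libraries (415 to 582 bases). Its mean effective length was 131 bases in PP and 221 bases in LL males, and with an offset for the effective length of the main transcript the male fold change by LL genotype turned to -0.63 on the log2 scale (adjusted p = 0.667). With a term for age it was 0.81 ± 0.33 (SE; unadjusted p = 0.0144, adjusted p = 0.506, DESeq2) in males. In females the age term gave 0.63 ± 0.31 (SE; unadjusted p = 0.0389, adjusted p = 0.329). By their labels PP mice of both sexes were 9 to 14 weeks old, LL males 13 to 14 and LL females 11 to 14.

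The Hamp2 share of the hepcidin pair, in estimated counts, was 2.27% ± 1.24 (SD, n = 4) for PP males and 2.87% ± 1.31 (SD, n = 4) for LL males. PP females had 29.6% ± 14.0 (SD, n = 5) and LL females 39.8% ± 11.6 (SD, n = 5). The lowest female share, 13.3%, was above the highest male share, 4.29%. The two-sided exact permutation p was 0.0159 in either genotype, the smallest that 5 against 4 mice allow, and 0.0635 after Benjamini-Hochberg adjustment over the 8 share tests. By LL genotype the share differed by 0.60 percentage points in males (exact permutation p = 0.514) and by 10.3 in females (exact permutation p = 0.238).

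Reads of the pair are not fully separable. Of the 31-base words of the canonical Hamp2 transcript, 31.4% were also in Hamp transcripts. Over all Hamp2 transcripts, 58.5% of 636 words were also in other genes, on either strand. The gene Gm44662 shared more of them than Hamp did, with 302 in a single transcript. In male PP 3 and male LL 4 the Hamp2 counts lay on Hamp2-203 (130 and 164 estimated counts) and none on the transcript that held all Hamp2 counts of the other males. How much of the low male Hamp2 level is Hamp, and how much of the Hamp2 counts is Gm44662, was not tested. With Hamp and Hamp2 summed, PP males had 3149 ± 1299 (SD, n = 4), LL males 4728 ± 1841 (SD, n = 4), PP females 6619.8 ± 3638 (SD, n = 5) and LL females 9766 ± 4522 (SD, n = 5). The sum was 1.07 ± 0.45 (SE) higher on the log2 scale in female than in male PP mice (adjusted p = 0.149, DESeq2) and 1.05 ± 0.45 (SE) higher in female than in male LL mice (adjusted p = 0.147), so that the call belonged to Hamp2 counted alone.

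**Figure D3:**
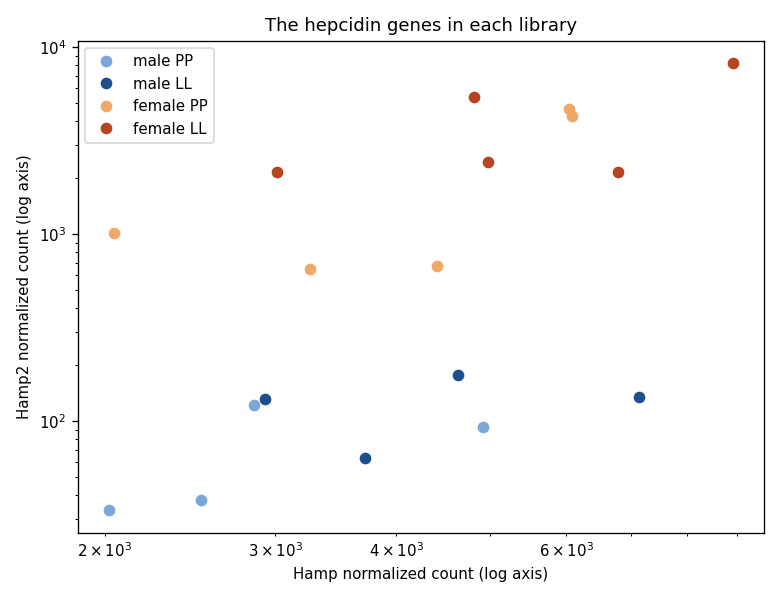
Normalized counts of Hamp (horizontal, log axis) and Hamp2 (vertical, log axis), 1 point per mouse, coloured by group. The sexes overlap along Hamp and are apart along Hamp2, with males at 33.3 to 177 and females at 647 to 8211.

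Fth1, the ferritin heavy chain that oxidises iron for storage, was higher in female LL than in female PP mice. Female PP mice had 5285, 5979, 5003, 6606 and 4738 normalized counts, and female LL mice 8088, 7252, 7356, 8850 and 8317. Every LL female exceeded every PP female, with a log2 fold change of 0.53 ± 0.12 (SE; adjusted p = 0.00224, DESeq2). Male PP mice had 5172 to 6920 and male LL mice 6519 to 8496, which overlapped, with a log2 fold change of 0.27 ± 0.13 (SE; adjusted p = 0.387). The interaction of 0.26 ± 0.17 (SE; adjusted p = 0.674) did not pass the test.

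Hjv, which encodes hemojuvelin, the co-receptor for bone morphogenetic proteins on hepatocytes, was also higher in female LL than in female PP mice. Female PP mice had 147, 130.01, 117.5, 148 and 112 normalized counts, and female LL mice 217, 182, 194, 199 and 166. These groups did not overlap either, and Hjv had a log2 fold change of 0.55 ± 0.13 (SE; adjusted p = 0.00634, DESeq2). In males the values were 143 to 173 in PP and 154 to 231 in LL mice, with a log2 fold change of 0.30 ± 0.15 (SE; adjusted p = 0.403). Of all tested genes, 2.66% did not overlap between the LL and PP females.

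Markers of other cell types were also compared between the female groups. The 7 erythroid markers summed to 1283 to 2277 normalized counts in PP and 1125 to 6059 in LL females, which overlapped. The 7 Kupffer cell markers summed to 887 to 1083 in PP and 515 to 851 in LL females, which did not overlap. The 7 sinusoidal endothelial markers summed to 433 to 818 and 299 to 634, which overlapped. So did the sums for stellate cells (747 to 995 and 459 to 989), cholangiocytes (53.4 to 117 and 74.0 to 137) and lymphocytes (19.1 to 37.1 and 17.8 to 51.0). None of the tested markers of these cell types was called by LL genotype in females, where 0.658% of all tested genes were. Of the erythroid markers, Slc4a1 was at most 2.72 in PP and 2.73 in LL females. Mitochondrial genes held 9.09% to 12.0% of the counts of PP and 10.5% to 13.7% of those of LL females. The part of these in the Fth1 and Hjv differences was not tested.

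The length of the sequenced fragments moved with the same comparison. PP females had fragments of 448 ± 108 bases (SD, n = 5) and LL females of 292 ± 52.1 bases (SD, n = 5), with 1 LL library (377 bases) above the lowest PP library (369 bases). The main Fth1 transcript has 929 bases, and its mean effective length, the length over which fragments can start, was 481 bases in the PP females and 638 bases in the LL females. With this effective length as an offset, a setting added after the data were seen, the Fth1 log2 fold change was 0.20 ± 0.16 (SE; adjusted p = 0.702), and with the average over all its transcripts it was 0.04 (adjusted p = 0.980). A term for fragment length gave 0.41 (adjusted p = 0.268). In TPM, Fth1 was at 3651 ± 860.0 (SD, n = 5) for PP females and 3456 ± 559 (SD, n = 5) for LL females, so the female difference in counts was not seen in TPM. The TPM and the average over all transcripts include Fth1-206, a coding transcript of 333 bases. It held 19.5% ± 8.28 (SD, n = 5) of the Fth1 counts of PP females and 16.6% ± 5.60 (SD, n = 5) of those of LL females. Its part in these values was not tested.

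Hjv behaved otherwise under the length offsets. Its transcript has 2028 bases, with mean effective lengths of 1580.2 bases for PP females and 1736.5 bases for LL females, and its log2 fold change was 0.53 ± 0.13 (SE; adjusted p = 0.0209) with the main transcript as the offset. In TPM it was at 12.4 ± 1.64 (SD, n = 5) for PP females and 17.1 ± 1.83 (SD, n = 5) for LL females. A term for fragment length gave 0.56, no longer called (adjusted p = 0.131), and edgeR called neither Hjv (adjusted p = 0.132) nor Fth1 (adjusted p = 0.167). Thus 0 of 10 genes were called by edgeR, with 4 at an unadjusted p below 0.05. With DESeq2 it was also 4 of the 10, as it was 1427 of the 10938 tested genes. The share of all tested genes with edgeR was not counted. Hjv also lost its call without female PP 3, female PP 5 or female LL 1, with log2 fold changes of 0.50 to 0.52, and Fth1 kept its call in all 18 such fits.

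**Figure D4:**
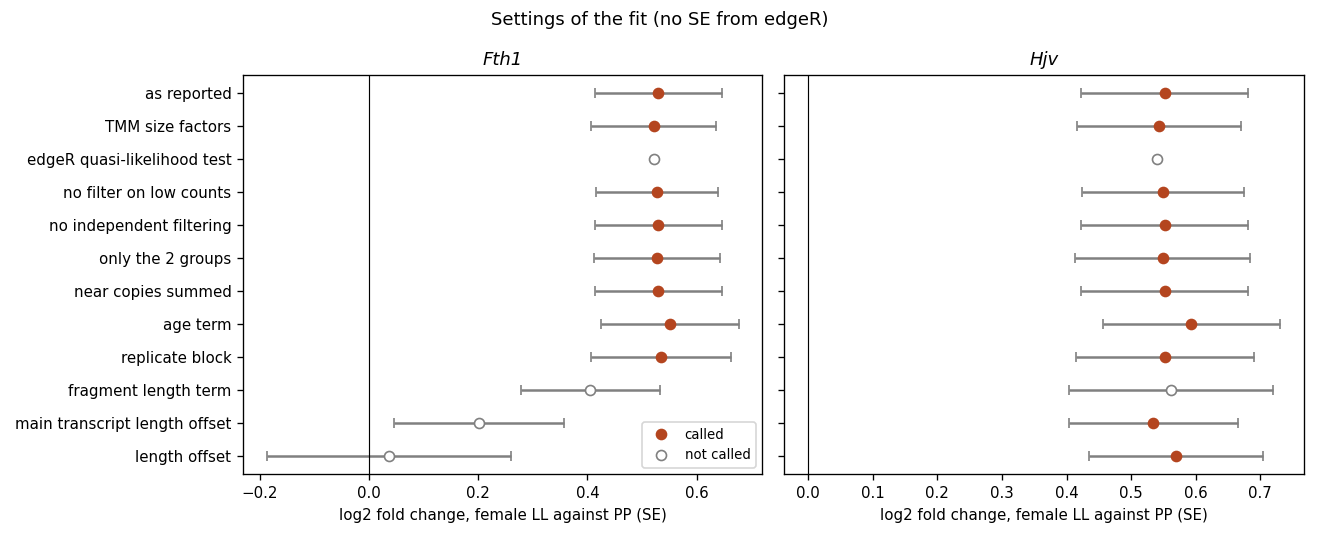
Log2 fold changes of Fth1 and Hjv in female LL against female PP mice (horizontal axes, bars are standard errors, not given by edgeR) in the reported fit and 11 other settings. Fth1 falls from 0.53 to 0.20 and 0.04 with the length offsets, and Hjv stays between 0.53 and 0.59.

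**Figure D5:**
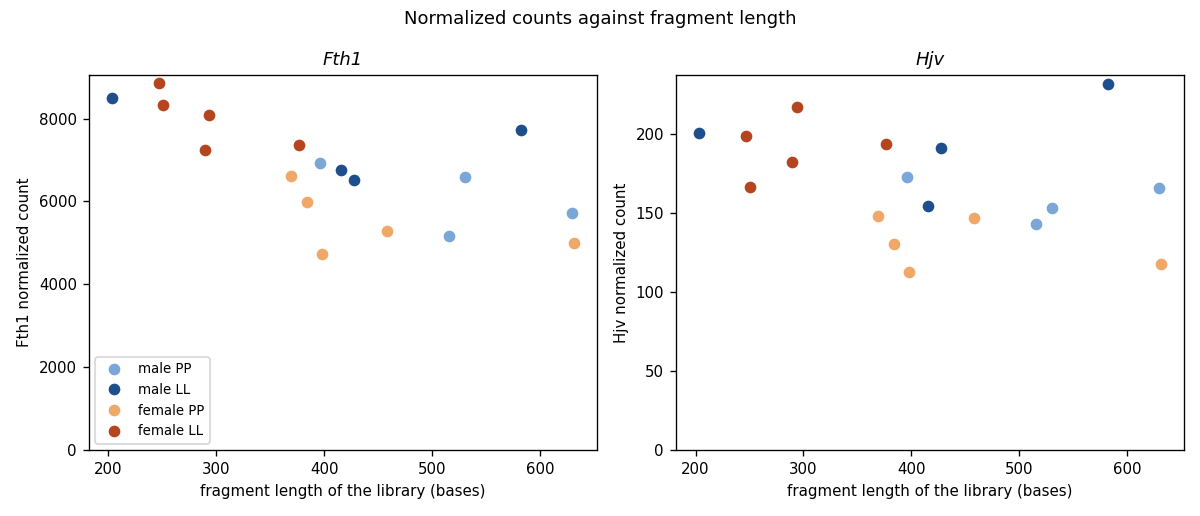
Normalized counts of Fth1 and Hjv (vertical axes, from 0) against the fragment length of the library in bases (horizontal axes), 1 point per mouse. Female LL libraries lie at 247 to 377 bases and female PP libraries at 369 to 631 bases.

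Ftl1, the ferritin light chain, was not called in any comparison. It ranged from 5487 to 7663 normalized counts in male PP and from 5773 to 9471 in female PP mice. Male LL mice had 2186, 8208, 9543 and 5944, and female LL mice had 9157, 5858, 5653, 13098 and 17693. The spread was thus wider in both LL groups, which was not tested. For LL against PP, Ftl1 had a log2 fold change of -0.05 ± 0.36 (SE; adjusted p = 0.991, DESeq2) in males and 0.39 ± 0.32 (SE; adjusted p = 0.607) in females. The Ftl1 share of the ferritin pair, in estimated counts, was 52.1% ± 7.22 (SD, n = 4) for PP males, 44.1% ± 14.7 (SD, n = 4) for LL males, 58.5% ± 2.50 (SD, n = 5) for PP females and 53.8% ± 10.3 (SD, n = 5) for LL females. No pair of groups differed in this share beyond the spread between mice, with two-sided exact permutation p from 0.175 to 0.457. Copies of Ftl1 annotated as pseudogenes held 0.679% to 13.7% of the reads given to Ftl1 and these copies together, and those of Fth1 at most 0.0384%.

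Slc40a1, which encodes ferroportin, was higher in female than in male PP mice. Male PP mice had 374, 306, 283 and 334 normalized counts, and female PP mice 570.1, 453, 484, 403 and 549. Every female exceeded every male, as for Hamp2, where 9.74% of all tested genes did not overlap. The log2 fold change was 0.60 ± 0.16 (SE; adjusted p = 0.00434, DESeq2). In LL mice it was 0.39 ± 0.16 (SE; adjusted p = 0.131), with 228 to 376 in males and 288 to 441 in females, and without male LL 4 it was called at 0.56 (adjusted p = 0.0124). By LL genotype Slc40a1 had a log2 fold change of -0.41 ± 0.15 (SE; adjusted p = 0.144) in females and -0.20 ± 0.17 (SE; adjusted p = 0.716) in males.

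Kupffer cells, the resident macrophages of liver that recycle iron from red cells, also express ferroportin, and their markers were compared beside it. All 7 Kupffer cell markers were measured, and their summed level ranged from 470.4 to 1203 in male PP, 440.0 to 748 in male LL, 887 to 1083 in female PP and 515 to 851 in female LL mice. The group means were 832, 542, 975 and 718, and male PP mice overlapped female PP mice. Sums for some other cell types did not overlap between male PP and female PP mice. They were 238 to 430.3 and 433 to 818 for sinusoidal endothelial cells, and 300.1 to 625 and 747 to 995 for stellate cells. For hepatocytes they were 424922 to 526445 and 735134 to 825747. The sums for erythroid cells, cholangiocytes and lymphocytes overlapped. In bulk liver fewer cells of a type and less RNA per cell cannot be told apart, and the part of these cell types in the Slc40a1 difference was not tested.

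Tfr2, the transferrin receptor of hepatocytes that senses iron-loaded transferrin, had a lower mean in LL than in PP males without passing the test. Male PP mice had 1006, 1092, 843 and 1113 normalized counts, and male LL mice 603, 755, 846 and 767, so that the groups overlapped by 1 mouse on each side. The log2 fold change was -0.45 ± 0.16 (SE; adjusted p = 0.180, DESeq2). In females it was -0.11 ± 0.14 (SE; adjusted p = 0.787), with 895 to 1159 in PP and 813 to 1339 in LL mice. Between the sexes it was 0.04 ± 0.15 (SE; adjusted p = 0.944) in PP and 0.38 ± 0.15 (SE; adjusted p = 0.113) in LL mice.

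Tfrc, the transferrin receptor that takes up iron in most cells, varied widely among females. Female PP mice had 84.6, 297, 164, 191 and 256.1 normalized counts, and male PP mice 114, 85.0, 159 and 108. The groups overlapped through female PP 1, the lowest of the 9. The log2 fold change of females over males in PP mice was 0.77 ± 0.31 (SE; adjusted p = 0.126, DESeq2), and without female PP 1 it was 0.96 and called (adjusted p = 0.0141). By LL genotype it was 0.29 ± 0.33 (SE; adjusted p = 0.835) in males and -0.35 ± 0.29 (SE; adjusted p = 0.618) in females. Tfrc-204, annotated as a retained intron, held 41.0% ± 26.8 (SD, n = 5) of the Tfrc counts of PP females and 75.5% ± 17.4 (SD, n = 5) of those of LL females, and the shares of the groups overlapped.

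Hfe, whose product joins transferrin receptor 2 in iron sensing, and Slc39a14, the ZIP14 importer of iron that is not bound to transferrin, were not called in any comparison. Hfe ranged from 95.8 to 163 normalized counts over all 18 mice, with log2 fold changes of 0.19 ± 0.13 (SE; adjusted p = 0.527, DESeq2) in females and 0.04 ± 0.15 (SE; adjusted p = 0.980) in males by LL genotype. Slc39a14 had 608 to 797 normalized counts in female PP and 467 to 642 in female LL mice, a log2 fold change of -0.32 ± 0.11 (SE; adjusted p = 0.128). In males it was -0.14 ± 0.13 (SE; adjusted p = 0.757).

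Genes of the wider pathway were read from 8 lists that hold 85 genes, of which 77 passed the filter on low counts. By LL genotype 2 of 77 were called in females, 1 higher and 1 lower, against 0.658% of all tested genes, and 0 of 77 in males, against 0.283%. In males 9 of the 77 had an unadjusted p below 0.05 with DESeq2, as had 854 of the 10938 tested genes. With edgeR it was 12 of the 77, and the share of all tested genes was not counted. Between the sexes 2 were higher and 3 lower in female than in male PP mice, a share near the 6.45% of all tested genes, and 3 higher and 3 lower in female than in male LL mice, near the 6.12% of all tested genes. The median log2 fold change over the 77 genes was -0.05 in male and 0.01 in female LL against PP mice, beside 0.00 and 0.01 over all tested genes.

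Of the upstream control of hepcidin by BMP and SMAD, 15 of 18 genes were tested and 1 was called in any comparison. The call was between the sexes in PP mice, and 1 of 15 is near the 6.45% of all tested genes called there. Bmp2, a BMP ligand made by sinusoidal endothelial cells, had 17.4 ± 3.75 normalized counts (SD, n = 4) in male PP and 37.1 ± 9.22 (SD, n = 5) in female PP mice, a log2 fold change of 1.09 ± 0.29 (SE; adjusted p = 0.00549, DESeq2). The 7 markers of sinusoidal endothelial cells summed to 238 to 430.3 in male PP and 433 to 818 in female PP mice, so that they too were apart between the groups in which Bmp2 was called, and their part in it was not tested. Bmp6, the ligand whose liver level follows iron stores, stayed below the filter, with at most 12.0 normalized counts. Tmprss6, the protease that cleaves hemojuvelin, had log2 fold changes by LL genotype of -0.30 ± 0.20 (SE; adjusted p = 0.612) in males and -0.20 ± 0.18 (SE; adjusted p = 0.644) in females. Id1 and Smad7, targets of the same signal, were low (means of 10.5 to 23.5 and 10.9 to 18.0 normalized counts) and not called.

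None of the 6 genes of the interleukin 6 and STAT3 route was called, where 0.119% to 6.45% of all tested genes were called in the 5 comparisons. Male PP 2 stood apart in acute-phase genes, which the liver makes in inflammation, with 12575 normalized counts of Saa1 and 7007 of Saa2, against at most 2043 and 461 in the other 17 mice. Lbp was 441 there, against at most 306, and Lcn2, which encodes a binder of bacterial iron carriers, was 445, against at most 36.9. Its Hamp level, 2516, lay within the 2020 to 4920 of its group.

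Among plasma carriers, Hp, the haptoglobin that binds free hemoglobin, was lower in female than in male PP mice with a log2 fold change of -1.18 ± 0.26 (SE; adjusted p = 0.000256, DESeq2), with 8413 ± 1389 (SD, n = 5) against 19038 ± 8359 (SD, n = 4) normalized counts. It was called in each of the 18 fits that left out 1 mouse, male PP 2 among them. Trf, the mouse transferrin gene, and Cp, the ferroxidase ceruloplasmin, were not called in any comparison. Their log2 fold changes by LL genotype were -0.15 ± 0.14 and -0.33 ± 0.18 (SE) in males, and -0.23 ± 0.12 and -0.29 ± 0.16 (SE) in females.

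Among genes of cell iron uptake, Scara5, a receptor for ferritin, was found in males and near 0 in females. Male PP mice had 64.0, 131, 110.0 and 79.2 normalized counts, and male LL mice 3.89, 28.8, 16.1 and 42.1. Female PP mice had at most 1.60 and female LL mice at most 0.813. Scara5 passed the filter on low counts through males alone, so the sexes could be compared only because males were high. The sexes differed in PP (adjusted p = 9.26e-14, DESeq2) and in LL mice (adjusted p = 5.65e-08). The male groups did not overlap, as for 4.07% of all tested genes, and the log2 fold change by LL genotype in males was -2.08 ± 0.48 (SE) with an unadjusted p of 1.30e-05, but the independent filter of DESeq2 left its adjusted p empty, so it was not called. Without that filter the adjusted p was 0.00835.

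Steap4, a metalloreductase, was lower in females than in males in PP (308 ± 85.2 against 611 ± 95.4; SD, n = 5 and 4; adjusted p = 0.000127, DESeq2) and in LL mice (253 ± 67.2 against 468 ± 97.3; SD, n = 5 and 4; adjusted p = 0.00135). Slc39a8, an importer of iron, zinc and manganese, was higher in female than in male PP mice by 0.85 ± 0.21 on the log2 scale (SE; adjusted p = 0.00196). Lrp1, a receptor for heme bound to hemopexin, was higher in female than in male LL mice by 0.62 ± 0.21 (SE; adjusted p = 0.0453), a call that 10 of the 18 fits without 1 mouse lost.

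The 2 pathway genes called by LL genotype, both in females, were Pgrmc1 and Abcb10. Pgrmc1, a heme-binding membrane protein, rose from 3746.5 ± 425 (SD, n = 5) in PP females to 5047 ± 669 (SD, n = 5) in LL females, by 0.43 ± 0.11 on the log2 scale (SE; adjusted p = 0.0164, DESeq2), and the groups overlapped. It kept this call in 12 of the 18 fits without 1 mouse, and both calls ended with edgeR, with the average length offset and with the fragment length term, where 0 of 77 pathway genes were called. Abcb10, a transporter of the inner mitochondrial membrane, fell from 85.8 ± 8.16 (SD, n = 5) to 59.7 ± 9.41 (SD, n = 5), with a log2 fold change of -0.52 ± 0.15 (SE; adjusted p = 0.0499), and kept its call in only 4 of the 18 fits without 1 mouse. Abcb10 was also lower in female than in male LL mice (-0.66 ± 0.16; SE; adjusted p = 0.00191). In the same comparison Alad, the second enzyme of heme synthesis, was higher by 1.05 ± 0.30 (SE; adjusted p = 0.0138), and Flvcr2 by 2.30 ± 0.58 (SE; adjusted p = 0.00288) at 16.3 ± 8.60 (SD, n = 5) against 3.28 ± 2.91 (SD, n = 4) normalized counts. Flvcr2 was low, with at most 7.56 normalized counts in any male, and passed the filter on low counts through females alone, where it was high. Hmox1, the heme oxygenase that frees iron from heme, had means of 39.5 to 49.8 normalized counts in the 4 groups and was not called. Of the 19 tested genes of mitochondrial iron and of the 3 of iron sensing, 0 were called with DESeq2 in any of the 5 comparisons. Of all tested genes, 0.119% to 6.45% were called in these comparisons.

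The genes most like Hamp in their deviation from the group mean over the 18 mice, among 5644 genes with a mean of at least 50 normalized counts, were Ndufs4 (Pearson r = 0.84), Adk (0.82), Atp5f1c (0.81), Hacd2 (0.81) and Selenok (0.80). Those most like Hamp2 were Acot13 (r = 0.91), Sult1a1 (0.88), Nqo2 (0.84) and Mrpl15 (0.83). These are descriptions of the best of many genes, and the points share depth and fragment length: 7 of these 9 had a main transcript of 686 to 1818 bases, shorter than the median of 2613 bases among the genes compared. Among the iron genes themselves, the highest within-group r over the 18 mice was 0.71, for Hamp2 with Fth1 and for Tfr2 with Ftl1, followed by 0.67 for Hamp with Fth1 and 0.60 for Hamp with Hamp2.

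The hepatocyte markers Alb, Ttr, Apoa1, Cps1, Serpina1c and Tat were summed. Their normalized counts were 424922 to 526445 in male PP, 513757 to 614811 in male LL, 735134 to 825747 in female PP and 615267 to 739962 in female LL mice. The sexes did not overlap in either genotype. Most of the sum was Alb, with means of 348169 in male PP and 666570 in female PP mice. Total estimated counts per library were 3794671 to 6613905. The Gckr exchange alters a codon, so counts do not identify the genotype.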

How the data were processed

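RNA of 18 mouse livers was sequenced, and the authors quantified each library against GENCODE M26 transcripts of GRCm39 with Salmon 1.4.0 after quality control with FastQC. The deposited tables hold estimated counts, which need not be whole, and TPM for 139225 transcripts per library. Here 137570 transcripts were joined to 52230 genes through GENCODE M39, and 1655 were left out. Estimated counts were summed per gene and rounded. Genes reaching 10 counts in 4 or more libraries (10938) were tested in 1 fit of the 4 groups with DESeq2 1.42.0 (Wald test, Benjamini-Hochberg adjustment, R 4.3.3), and called where the adjusted p was below 0.05 and the fold was 1.3 or above, or 0.7 or below (the interaction by adjusted p alone).

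Totals of 3794671 to 6613905 estimated counts per library set the precision, and gene counts carry counting error beside the spread between mice. Each library is a separate mouse. The ages of the labels run from 9 to 14 weeks, while the design text gives 14 weeks for all. Fragment length was taken as the length minus the effective length of transcripts of at least 3000 bases. Whether counting used strand is not given in the sources used here. Shares of a gene pair were compared by two-sided exact permutation tests.

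The iron genes, the pathway lists and the tests were chosen with earlier results of these data known. Named genes were the 10 iron genes; Trf, Tmprss6, Bmp6, Smad7, Id1, Hmox1, Lcn2 and Cp; every pathway gene called in a comparison, at most 6 in each; the 5 genes most like Hamp and Hamp2; and Saa1, Saa2 and Lbp. Of the genes most like Hamp2, 1 is not reported here. Transferrin was looked up by its mouse symbol Trf. Alternatives were edgeR 4.0.16 (quasi-likelihood test), TMM size factors, no filter on low counts, no independent filtering, no fold limit, effective length offsets, terms for age and fragment length, the 2 groups alone, the replicate number as a block, near copies summed, shares of TPM or with gene copies in the total, and each mouse left out. The scripts for the fits were tested on simulated data.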

Additional observations from a re-analysis of the deposited data

Results flagged for a closer look

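The Hamp2 share of the hepcidin pair in male PP 3 was 4.12%, and the other 3 male PP mice had 1.48% to 1.84%. It was noted because its gap to the nearest mouse, relative to the range of the group, passed the 95% limit of Dixon's test. In this library the Hamp2 counts were assigned to Hamp2-203, and those of the other 3 to another transcript. Among the 48 groups of values checked (the 10 genes and 2 shares in 4 groups), it was the single value noted, and chance gives about 1 in 20.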

How the results depend on the processing

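The female LL count of 2 iron genes became 0 with edgeR, 0 with a fragment length term, 1 with the average length offset, 1 with the main transcript length offset (an alternative chosen after seeing the data) and 1 without female PP 3, female PP 5 or female LL 1. The sex count in PP mice became 1 with the average length offset and 1 with near copies summed, and that in LL mice 0 with near copies summed and 2 without male LL 4. The pathway count of 0 in males became 1 without the filter on low counts, without independent filtering, with the average length offset and with the replicate block, 2 with an age term, and 1 to 2 in 8 fits without 1 mouse. The pathway count of 2 in females became 0 with edgeR, the average length offset and the fragment length term, 1 without independent filtering, with the main transcript length offset, the age term, the 2 groups alone and the replicate block, and 0 to 4 in 14 fits without 1 mouse. In PP mice the sex count of 5 pathway genes became 8 with the average length offset.

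Directions turned for fold changes that were not called. With the average length offset, log2 fold changes were -0.53 (Hamp), -0.44 (Hamp2), -0.21 (Hfe), -0.051 (Fth1) and 0.21 (Ftl1) by genotype in males, -0.66 (Hfe) in females, -0.17 (Hamp), 0.020 (Hfe), 0.20 (Fth1) and -0.090 (Ftl1) by sex in PP, 0.0066 (Hjv), -0.43 (Hfe), -0.053 (Ftl1) and 0.093 (Slc39a14) by sex in LL mice, and 0.99 (Hamp) and -0.45 (Hfe) for the interaction. With the main transcript length offset they were -0.63 (Hamp) and -0.44 (Hamp2) in males, -0.26 (Hamp) by sex in PP, -0.15 (Fth1) by sex in LL and 1.06 (Hamp) for the interaction. With the fragment length term they were -0.10 (Hamp2, interaction) and -0.013 (Hfe, sex in LL). Over the fits without 1 mouse the ranges that crossed 0 were -0.29 to 0.24 (Ftl1, males), -0.043 to 0.095 (Hfe, males), -0.046 to 0.086 (Hfe, sex in LL), -0.11 to 0.071 (Hjv, sex in LL), -0.12 to 0.30 (Tfrc, sex in LL), -0.038 to 0.093 (Tfr2, sex in PP), -0.52 to 0.095 (Hamp, interaction) and -0.40 to 0.48 (Hamp2, interaction). The Ftl1 share in TPM differed by 3.07 percentage points by genotype in females, -5.87 by sex in PP and -1.55 by sex in LL mice. The cause was not tested.

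Slc40a1 had a log2 fold change of 2.68 between the sexes in PP mice with the average length offset, where its adjusted p was empty. The labels do not say whether the replicate numbers mark paired mice. Same-numbered mice correlated at -0.28 to 0.19, and some mice but not all correlated best with their own number. With few mice per group these correlations cannot settle whether mice were paired. With the replicate block 2 iron genes were called in female LL mice, and log2 fold changes turned to 0.027 (Hjv, sex in LL), -0.0021 (Tfrc, sex in LL) and -0.022 (Tfr2, sex in PP).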

Other observations

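Alas2, the first enzyme of heme synthesis in red cell precursors, was chosen after its values were seen. It had 430.4, 499, 458 and 536.5 normalized counts in male PP mice and 297, 364.5, 448 and 471 in male LL mice. Female PP mice had 50.7 to 110.2 and female LL mice 51.8 to 140.2, so that every male exceeded every female. Of all tested genes, 9.74% in PP and 8.16% in LL mice did not overlap between the sexes. Hbb-bs, a hemoglobin gene of red cells, had 802 to 2895 normalized counts in male PP, 334 to 1900.2 in male LL, 679 to 1223 in female PP and 583 to 3349 in female LL mice, and the groups overlapped. Hfe-203, a coding transcript of Hfe with 816 bases, held 12.1% to 23.04% of the Hfe counts of PP females and 0% of those of the 5 LL females, while the male groups ranged from 0% to 26.8% in PP and from 0% to 16.5% in LL mice. How its share moves with fragment length was not tested.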
